A study of Mus musculus with 24 samples.

Results

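The genes described here are 6 markers of cortical excitatory neurons, Slc17a7, Neurod6, Tbr1, Neurod2, Emx1 and Fezf2, measured by RNA-seq in punches of the nucleus accumbens (NAc), part of the ventral striatum and of the brain's reward circuit. They were chosen by name as known markers, with earlier results of these data known. They are 6 of the 52636 gene identifiers counted in the libraries. The libraries, 1 for each animal, come from 24 C57BL/6 mice at P50, whose NAc was taken from both sides with a 1.5 mm punch. There were 6 control (Con) females, labelled CONF, 6 Con males (CONM), 6 females raised with maternal separation and unpredictable maternal stress (MSUS, labelled MSF) and 6 MSUS males (MSM). Con litters were left undisturbed. MSUS pups were taken from the dam each day from P1 to P14, for 2 h per day by the labels. The study's methods give a longer separation, and the litter of each animal is not given. The libraries were made from total RNA after removal of ribosomal RNA, and held between 39923666 and 70575745 sense counts each.

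Neurons that project from the cortex release glutamate, whereas the projection neurons of the NAc, the medium spiny neurons, release GABA. The NAc receives axons of cortical neurons, but the cell bodies, where most of a neuron's RNA lies, are in the cortex. Slc17a7 encodes VGLUT1, the transporter that loads glutamate into synaptic vesicles in cortical neurons. The other genes encode transcription factors of the developing and adult pallium. Neurod2 and Neurod6 are basic helix-loop-helix factors of differentiating pyramidal neurons, Tbr1 is a T-box factor of early-born deep-layer neurons, Emx1 is a homeobox factor of the dorsal telencephalon, and Fezf2 is a zinc finger factor that specifies subcerebral projection neurons. In bulk tissue, fewer cells of a type and less RNA per cell cannot be told apart.

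NeuroD proteins bind E-boxes, and the windows before the transcription starts are shown for Slc17a7 and for both NeuroD factors. They are the 250 bases before the RefSeq start on GRCm38.p6, with each E-box (CANNTG, both strands) in capitals, and lie at chr7:45163671-45163920 on the + strand for Slc17a7, chr6:55681264-55681513 on the - strand for Neurod6 and chr11:98329646-98329895 on the - strand for Neurod2.
Slc17a7: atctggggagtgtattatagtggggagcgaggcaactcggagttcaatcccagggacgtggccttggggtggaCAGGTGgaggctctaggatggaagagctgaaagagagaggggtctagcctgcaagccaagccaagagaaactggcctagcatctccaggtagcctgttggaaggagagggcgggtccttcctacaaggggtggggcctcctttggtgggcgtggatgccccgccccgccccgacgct
Neurod6: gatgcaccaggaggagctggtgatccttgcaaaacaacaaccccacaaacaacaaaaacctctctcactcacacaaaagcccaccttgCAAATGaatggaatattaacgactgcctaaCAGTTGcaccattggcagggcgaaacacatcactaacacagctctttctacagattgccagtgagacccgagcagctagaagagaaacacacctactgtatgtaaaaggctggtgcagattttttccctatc
Neurod2: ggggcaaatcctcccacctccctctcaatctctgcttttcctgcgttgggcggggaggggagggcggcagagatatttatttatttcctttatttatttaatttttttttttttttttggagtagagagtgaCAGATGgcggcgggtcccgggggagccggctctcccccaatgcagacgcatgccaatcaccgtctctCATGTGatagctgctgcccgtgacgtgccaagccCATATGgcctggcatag
The Slc17a7 window held 1 E-box, that of Neurod6 held 2 and that of Neurod2 held 3. An E-box was present in 66.2% of the 32851 RefSeq windows of this length. The form CAGATG, which overlaps the general E-box and is present in 14.4% of the windows, occurred once before Neurod2. In the windows of the other genes, Tbr1 had 1 E-box and 2 matches to the homeobox core TAATTA (4.84% of the windows hold one), Emx1 had 1 E-box and Fezf2 had none. The T-box motif AGGTGT (11.8% of the windows) was found once before Neurod6. The windows of Tbr1, Emx1 and Fezf2 lie wholly within their GENCODE gene models, so they do not precede every annotated start. These matches describe the letters only, and binding was not tested.

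Slc17a7 was the most abundant of the 6 genes per length in every animal, and Tbr1 was second in all 24. The median level over the animals was 34.9 CPM (counts scaled to a common library total) per kb of exon for Slc17a7, 4.91 for Tbr1, 2.55 for Neurod2, 2.14 for Neurod6, 0.638 for Fezf2 and 0.458 for Emx1. The order among Neurod2 and Neurod6 was not fixed, as Neurod2 ranked 3rd in 15 animals and Neurod6 in 7. Emx1 ranked 6th in 17 animals and Fezf2 in 7.

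The amount of each marker in the punch differed widely between animals of the same group. The levels below are CPM after TMM normalization, given as the lowest, the median and the highest of 6 animals. Slc17a7 had 111, 367 and 1172 CPM in Con females and 4.20, 69.9 and 466 CPM in MSUS females. In males it had 28.6, 165 and 773 CPM in Con animals and 31.1, 183 and 1164 CPM in MSUS animals. The lowest level, in MSF5, rested on 201 counts, and the highest, in CONF3, was 279-fold above it. All 4 groups overlapped, and the highest MSUS female exceeded the median of each other group.

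Tbr1 had 14.6, 52.0 and 162 CPM in Con females and 3.13, 10.5 and 72.0 CPM in MSUS females. Its levels in males were 4.91, 24.3 and 103 CPM in the Con group and 8.46, 27.4 and 151 CPM in the MSUS group. The groups again overlapped, with MSF5 lowest and CONF3 highest.

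Neurod2 had 3.83, 17.1 and 60.6 CPM in Con females and 0.167, 2.35 and 25.6 CPM in MSUS females, where MSF5 had 8 counts. Con males had 1.26, 7.81 and 39.9 CPM of Neurod2, and MSUS males had 1.19, 8.38 and 50.8 CPM. The animals of each male group thus covered much of the range of the females. For Neurod6, Con females had 1.94, 11.7 and 35.8 CPM and MSUS females had 0.251, 0.971 and 16.98 CPM. The corresponding levels of Neurod6 were 0.806, 5.56 and 25.4 CPM in Con males and 0.604, 5.08 and 34.2 CPM in MSUS males. Both NeuroD genes were lowest in MSF5, and in each group their lowest and highest animals were at least 15.8-fold apart.

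Emx1 had 0.873, 2.13 and 5.24 CPM in Con females, and 0.0209, 0.401 and 2.24 CPM in MSUS females. The lowest of these was a single count in MSF5. In males Emx1 had 0.290, 0.733 and 3.93 CPM in the Con group and 0.183, 1.10 and 6.07 CPM in the MSUS group. Fezf2 had 1.37, 3.61 and 17.9 CPM in Con females and 0.793, 1.22 and 2.94 CPM in MSUS females. Its male levels were 1.74, 1.99 and 6.76 CPM in Con animals and 0.860, 1.93 and 6.42 CPM in MSUS animals. Fezf2 was highest in CONF2, as was Neurod6, and lowest in MSF4, whereas the other 5 genes were lowest in MSF5. Groups overlapped for both Emx1 and Fezf2.

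**Figure D1:**
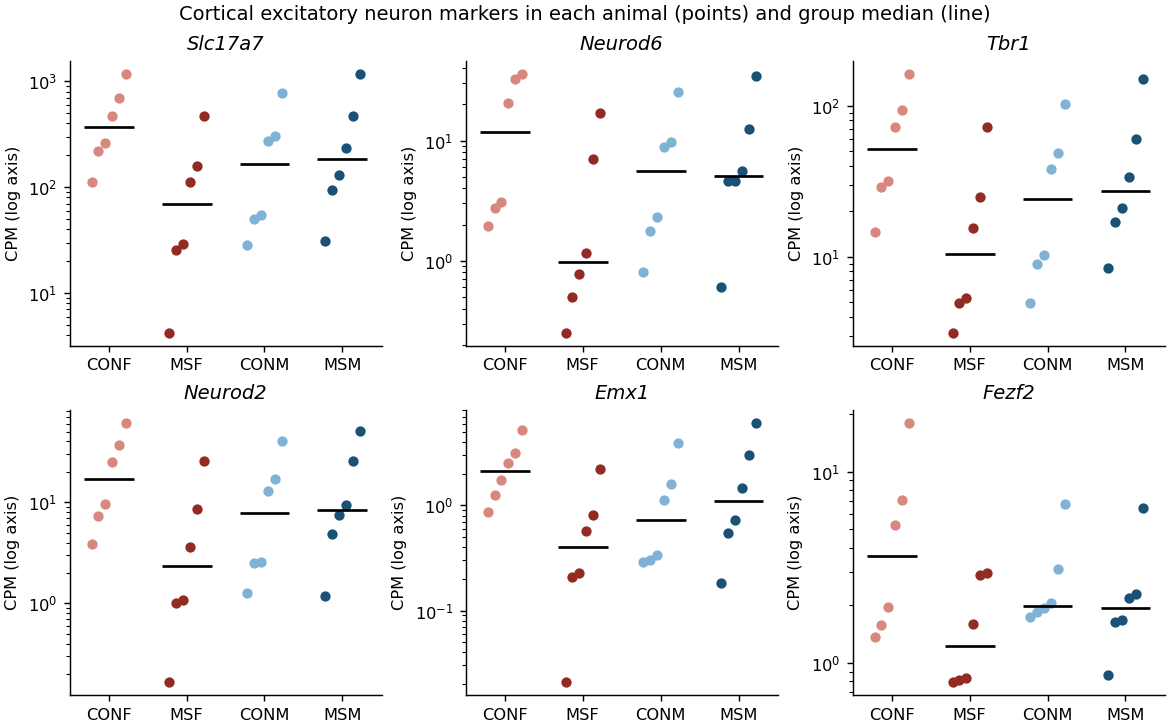
CPM on a log axis for each of the 6 genes, with 1 point per animal (n = 6 per group) and a line at the group median. For every gene the groups overlap, Con females have the highest median and MSUS females the lowest.

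Con females had the highest median and MSUS females the lowest for each of the 6 genes, while the male groups lay between them and exchanged places from gene to gene. The male groups did not differ from each other beyond the spread between animals. Other neighbours in the order were not all compared by a test. Between-group differences made up 19.2% (Neurod6) to 27.7% (Emx1) of the variance of log2 CPM, beside a median of 16.8% over the 21500 genes tested. The SD of log2 CPM over the 24 animals ran from 1.10 for Fezf2 to 2.11 for Neurod2, beside a median of 0.200 over all genes. Within groups, Neurod6 had the 7th largest SD of the 21500 genes and Neurod2 the 8th, followed by Slc17a7 (rank 11), Tbr1 (rank 39), Emx1 (rank 44) and Fezf2 (rank 197). The fitted biological coefficient of variation was 0.695 for Fezf2 and up to 1.16 for Neurod6, beside a median of 0.118.

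The high and the low animals were largely the same for all 6 genes. CONF3, CONM5 and MSM6 were each among the 3 highest animals for 5 of the 6 genes, and MSF5 was among the 3 lowest for all 6. When animals were ordered by the mean of the standardized log2 levels of the 6 genes, MSM6 came first and CONF2, CONF3 and CONM5 followed. The lowest places went to MSF5, MSF4, MSF3 and MSM4. High animals were thus found in Con and in MSUS groups and in both sexes. The MSUS females took ranks 6, 11, 17, 22, 23 and 24, the Con females ranks 2, 3, 5, 12, 13 and 16, the Con males ranks 4, 8, 9, 18, 19 and 20, and the MSUS males ranks 1, 7, 10, 14, 15 and 21.

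**Figure D2:**
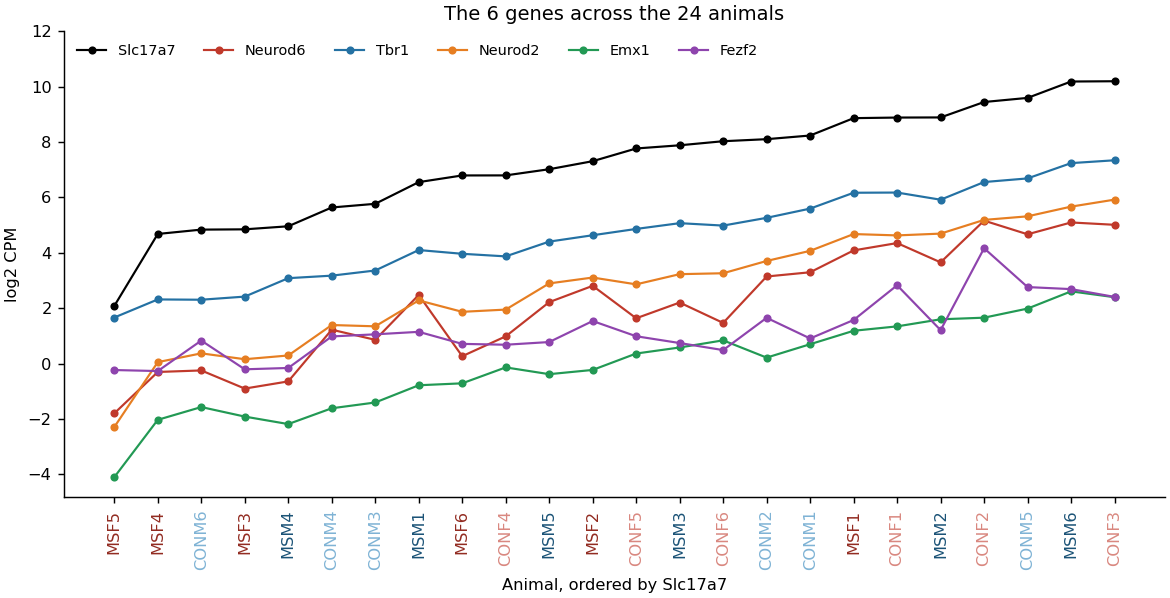
Log2 CPM of the 6 genes in the 24 animals, ordered from the lowest to the highest Slc17a7 level, with animal names coloured by group. The curves of Slc17a7, Tbr1, Neurod2 and Emx1 rise together, Neurod6 follows with more scatter, and Fezf2 rises less.

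Covariation was computed for the 15 pairs of genes on log2 CPM over the 24 animals. Slc17a7 and Neurod2 had the highest correlation, with a Pearson's r of 0.993 and a Spearman's rho of 0.990, and Slc17a7 and Emx1 followed with an r of 0.991 and a rho of 0.981. Slc17a7 and Tbr1 had an r of 0.979, and both NeuroD genes an r of 0.969 with each other. The lowest value was that of Emx1 and Fezf2, with an r of 0.771 and a rho of 0.755. The median r over the pairs was 0.960, and without Fezf2 no pair fell below 0.925. By a permutation test with 100000 resamples, two-sided and Benjamini-Hochberg adjusted over the 15 pairs, the largest adjusted p was 3.0e-05 for r and 5.0e-05 for rho. The p of 13 pairs was 1e-05, the smallest that these resamples can give. Because the genes were chosen with earlier results of these data known, these p-values are not an independent test of the covariation.

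The covariation did not rest on the groups or on single animals. With group means subtracted, r over the pairs lay between 0.727 and 0.993. Within the 6 animals of a group the lowest r of any pair was 0.707 for CONF, 0.869 for MSF, 0.761 for CONM and 0.869 for MSM. The animals had odd replicate numbers in libraries 1 to 12 and even ones in libraries 13 to 24, and the lowest r was 0.831 within the first set and 0.733 within the second. Leaving out the 2 animals farthest from the median gave r between 0.737 and 0.992, and leaving out any 1 animal kept r between 0.748 and 0.994.

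Compared with all genes, the 6 markers were among the closest to each other. Each gene was correlated with the mean standardized level of the other 5, with group means subtracted, and ranked among 21495 genes. Neurod2 and Tbr1 each ranked 2nd, Neurod6 4th, Slc17a7 6th and Emx1 17th. Fezf2 ranked 566th, with an r of 0.80. The ranks describe genes chosen with earlier results of these data known, and are not an independent test either.

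The ratio to Slc17a7 varied less for some of the genes than for others. Per 100 CPM of Slc17a7, Neurod2 had between 3.26 and 5.71 CPM with a median of 4.67, a 1.75-fold range across animals in which Slc17a7 itself varied 279-fold. Emx1 had between 0.409 and 1.05 CPM on the same scale, a 2.57-fold range with or without MSF5, where it had 1 count. Tbr1 lay between 12.1 and 74.6 CPM, and its highest value without MSF5 was 27.2 CPM, which left a 2.25-fold range. The Neurod6 ratio varied 5.71-fold, from 1.05 to 5.97 CPM.

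Fezf2 did not keep a fixed proportion to Slc17a7. Its ratio ran from 0.450 CPM per 100 CPM of Slc17a7 in CONF3 to 19.4 in MSF5, a 43.1-fold range that was 13.6-fold without MSF5. The Fezf2 level thus stayed at or above 0.793 CPM in animals in which Slc17a7 was low. These ratios compare genes within libraries, and are not levels per length.

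**Figure D3:**
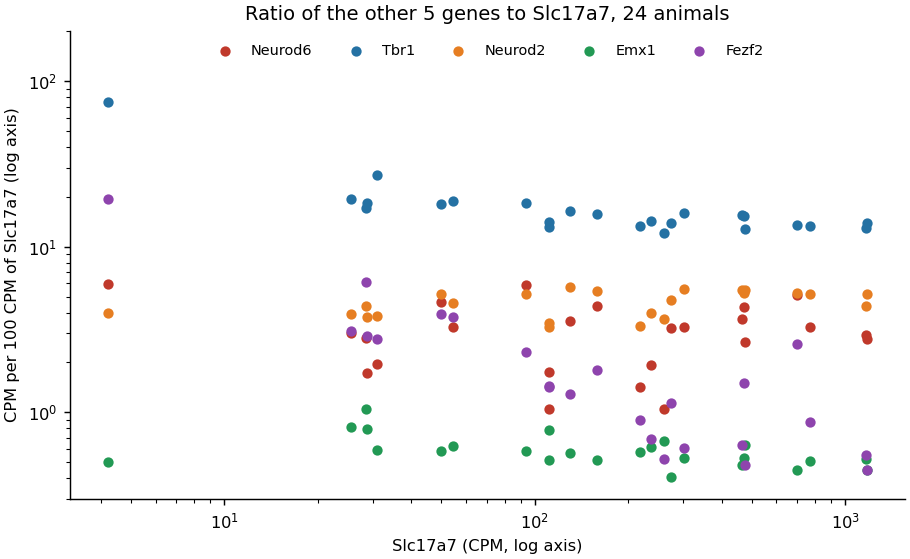
CPM of each of the other 5 genes per 100 CPM of Slc17a7 against the Slc17a7 level, both on log axes, with 1 point per gene and animal (24 animals). The Neurod2 points form a nearly level band between 3.26 and 5.71, the Tbr1 and Fezf2 points are highest at the left in MSF5, and Fezf2 falls towards the right.

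To ask whether early-life stress changed the markers in females, the MSF and CONF animals were compared with the quasi-likelihood test of edgeR. All 6 fitted values were below 0, and Emx1 and Fezf2 passed the threshold of an adjusted p under 0.10. Of the 20571 genes tested in this comparison, 25.1% passed the threshold and 11.9% passed it with lower levels in MSUS females. The 6 genes varied together over the same animals. Their shared sign is therefore not 6 separate results, and no excess over these shares can be read from 2 of 6. Emx1 fell by 1.82 on the log2 scale (SE 0.69, edgeR adjusted p = 0.0944), and Fezf2 also fell by 1.82 (SE 0.69, edgeR adjusted p = 0.0931). The log2 fold change of Slc17a7 was -1.88 (SE 0.95, edgeR adjusted p = 0.193), with a 95% interval from -3.97 to 0.21. Tbr1 had a log2 fold change of -1.67 (SE 0.82, edgeR adjusted p = 0.181), Neurod2 of -1.82 (SE 0.98, edgeR adjusted p = 0.221) and Neurod6 of -1.84 (SE 1.07, edgeR adjusted p = 0.255). The median over the 6 genes was -1.82, beside 0.00 over all genes tested.

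Single animals decided these calls. Without MSF1, the MSUS female with the highest levels, all 6 genes were past the threshold, and their values lay between -3.02 and -2.07 on the log2 scale. Over all genes, 5737 of the 20707 tested passed in that fit. Emx1 passed it also without CONF4 or CONF5 and Fezf2 without CONF4, CONF5 or CONF6, but neither gene passed when any of the other 5 MSUS females, CONF1, CONF2 or CONF3 was left out, and Emx1 did not without CONF6. The Fezf2 value was -1.05 (edgeR adjusted p = 0.232) without CONF2, its highest animal.

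The female groups also differed in library composition. Between 36.3% and 43.9% of the uniquely mapped pairs were assigned to no gene in MSUS females, and between 31.0% and 34.8% in Con females, without overlap. The corresponding range was 34.7% to 40.6% in Con males and 32.2% to 44.7% in MSUS males. With this share as a covariate, none of the 6 genes and no gene of the whole table passed the threshold by edgeR's test (1174 genes had an unadjusted p under 0.05), and each of the 6 genes had an adjusted p of 0.76, with log2 fold changes between -4.36 (Neurod6) and -3.14 (Emx1). Over the 24 animals, r between the 6 genes and this share lay between -0.48 (Emx1) and -0.33 (Neurod6) and rho between -0.51 (Emx1) and -0.29 (Fezf2), with an adjusted permutation p of r from 0.0428 to 0.123. This r was between -0.44 and -0.29 without the 2 animals farthest from the median share, between -0.60 and -0.21 within the library sets, and between -0.21 and -0.09 with group means subtracted. Within the female groups it was above 0 for all 6 genes, from 0.05 to 0.27 in the CONF animals and from 0.25 to 0.31 in MSF, and within the male groups it was below 0, from -0.84 to -0.42 in CONM and from -0.55 to -0.26 in MSM. The share and the group cannot be told apart in females.

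In males, the same comparison gave no gene past the threshold, among the 6 or in the whole table (0% of 20691 genes by edgeR, where 191 genes had an unadjusted p under 0.05, and 0 genes by DESeq2). The log2 fold changes of MSUS over Con males ran from -0.21 (SE 0.48) for Fezf2 to 0.67 (SE 0.83) for Emx1, with an edgeR adjusted p of 1.00 for each. The 95% interval of Slc17a7 extended from -1.54 to 2.59, so that a several-fold difference in either direction would not have been detectable. The sign also rested on single animals. Without MSM6 the values of the 5 genes other than Fezf2 fell below 0, and without CONM5 that of Fezf2 rose above 0.

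The difference between the sexes in the response to MSUS was tested as the interaction of group and sex, fitted to the 24 animals together. The interaction terms of the 6 genes were between -2.50 (Emx1, SE 1.14) and -1.61 (Fezf2, SE 0.86), and their edgeR adjusted p lay between 0.250 and 0.398. No gene of the table passed the threshold by edgeR (0% of 21500 genes, with 4031 at an unadjusted p under 0.05), and 390 genes did by DESeq2, none of them among the 6. Without MSM1, 3031 genes passed by edgeR, again with none of the 6, and without any other single animal at most 1 gene did. Of the 6 genes, Emx1 was the one with an unadjusted p under 0.05 by edgeR. A different response of the sexes was therefore not shown for these genes.

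The sexes were also compared within each group. Con females had higher fitted levels than Con males for all 6 genes, with log2 fold changes between 0.90 (Neurod2) and 1.01 (Fezf2), but none passed the threshold (edgeR adjusted p from 0.436 to 0.609), beside 2.64% of the 20641 genes tested. This background of 544 genes was itself unstable, at between 20 (without CONF4) and 1395 (without CONM5) genes when 1 animal was left out. Fitted levels in MSUS females were below those in MSUS males, with log2 fold changes from -1.54 (Emx1) to -0.61 (Fezf2) and an edgeR adjusted p from 0.667 to 0.724. Of the 20714 genes of that comparison, 0.135% passed. Neither comparison had a member at an unadjusted p under 0.05. These comparisons share their animals with those of MSUS and Con.

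**Figure D4:**
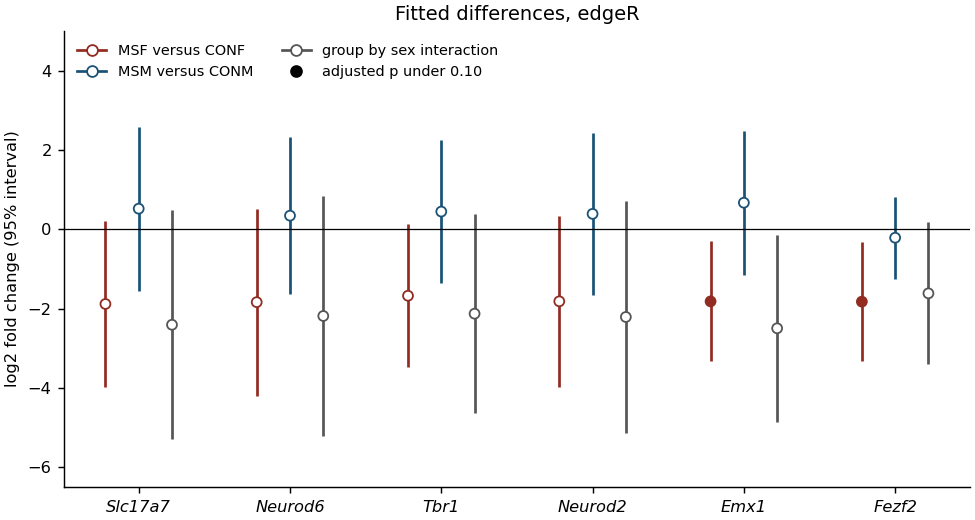
Log2 fold changes from edgeR (points) with 95% intervals (lines) for MSUS against Con females, MSUS against Con males, and the group-by-sex interaction. Filled points mark an adjusted p under 0.10, reached by Emx1 and Fezf2 in females, and most intervals cross 0.

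Other genes of excitatory neurons were examined in lists. Of 12 markers of forebrain excitatory neurons, 5 fell in MSUS females by edgeR's test and none rose, where 11.9% of all genes tested fell, with a list median log2 fold change of -0.72 beside 0.00 over all genes. They were Nrgn (neurogranin), which fell by 0.65 (edgeR adjusted p = 0.0283), Camk2a, a kinase subunit of the postsynaptic density that medium spiny neurons also express, which fell by 0.20 (edgeR adjusted p = 0.0195), Chn1, Sv2b and Nptx1. Of 12 deep-layer genes, Rprm, Hs3st4 and Deptor fell and none rose, and the list median was -0.33. None of the 7 upper-layer genes passed the threshold (median 0.04), nor did the 4 genes of the claustrum and endopiriform nucleus (median -0.48). Of these 35 genes, 8 passed the threshold in females, all with lower levels in MSUS females. Over all genes tested 25.1% passed it, and 11.9% passed it with lower levels. The number of the 35 genes that passed was 19 without MSF1, beside 5737 of the 20707 genes tested. It was 5 without CONF3, MSF3 or MSF4, and 0 with the share of pairs with no gene as a covariate. No gene of these lists passed it in males.

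Not all listed cortical genes followed the 6 markers from animal to animal. The correlation with the mean standardized level of the 6, over 24 animals with group means subtracted, was positive for all 12 forebrain excitatory genes, from 0.56 (Nrgn) to 0.96 (Nptx1), with a median of 0.87. Over the 21494 other genes tested the median was -0.02. Among deep-layer genes it was 0.97 for Cplx3, 0.97 for Ccn2 and 0.95 for Nxph4, which mark the deepest cortical layer, but -0.68 for Crym, -0.59 for Etv1 and -0.54 for Syt6, and 7 of the 12 were positive. Among upper-layer genes Rorb had 0.86 and Lamp5 -0.71, and 2 of the 7 were positive. Of the claustrum genes, Nr4a2 and Ntng2 had 0.95 and 0.94, and Gnb4 had -0.32. Crym and Syt6, with medians of 181 CPM and 138 CPM over the animals, were lowest in CONF3, at 83.1 CPM and 63.2 CPM. They were highest in MSF4 and MSF3, at 217 CPM and 176 CPM. Most of the medium spiny neuron markers below were also lowest in CONF3. Which cells of the punch express the listed layer genes was not tested.

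Related members of the same gene families were measured as well. Of 8 paralogs, Neurod4, Tbx21 and Fezf1 had at most 34 counts in any library and did not pass the filter. Neurod1 followed the 6 markers (r = 0.94) at a median of 0.524 CPM, and Emx2 had an r of 0.64. Slc17a6, the VGLUT2 gene of thalamic neurons, had an r of 0.44, and Slc17a8, the VGLUT3 gene found in cholinergic interneurons, had an r of -0.80. Eomes, a T-box gene with a median of 0.122 CPM, had an r of 0.12. In MSUS females Slc17a6 fell by 0.69 (edgeR adjusted p = 0.0948) and Emx2 by 0.25 (edgeR adjusted p = 0.0321), and no paralog rose.

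Markers of the neurons of the NAc were present in every library. The summed level of 15 medium spiny neuron markers, among them the dopamine receptor genes Drd1 and Drd2, lay between 2801 and 7189 CPM in the CONF animals. It was between 4899 and 6389 CPM in MSF, 4283 and 6780 CPM in CONM, and 3319 and 6707 CPM in MSM. It varied 2.57-fold over the animals, whereas the summed level of the 6 cortical markers varied 167-fold, from 8.59 CPM to 1438 CPM. All 15 genes had a negative correlation with the 6 markers (median -0.51, from -0.68 for Six3 to -0.27 for Tac1), and 14 of the 15 were lowest in CONF3. None of the 15 passed the threshold between MSUS and Con animals in either sex. The 3 genes of cholinergic interneurons, Chat, Slc5a7 and Slc18a3, had correlations between -0.78 and -0.77, and none passed the threshold in females or in males.

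**Figure D5:**
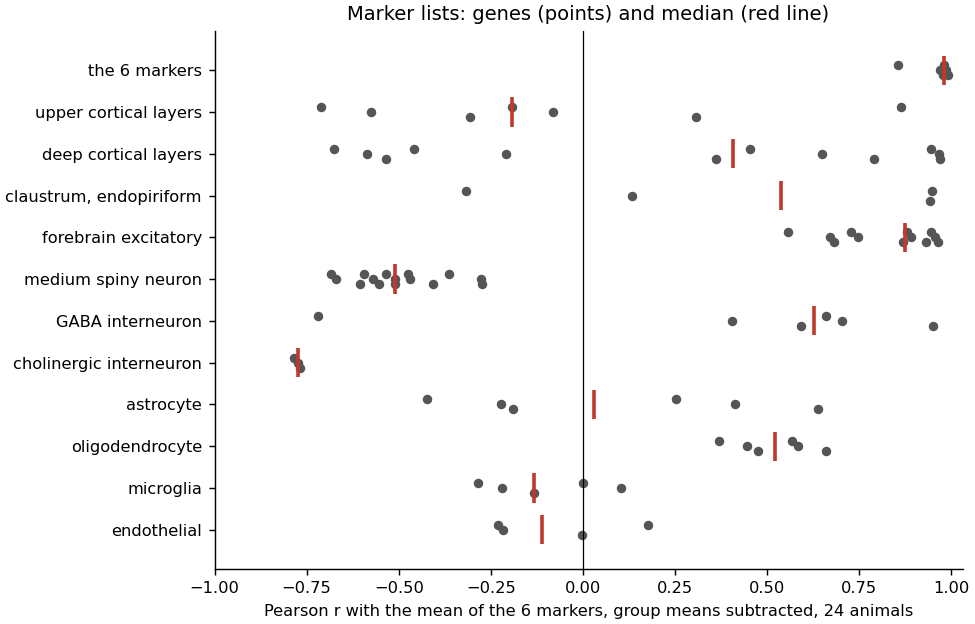
Pearson's r of each listed gene (points) with the mean standardized log2 CPM of the 6 markers, over 24 animals with group means subtracted, and the median of each list (red line). Forebrain excitatory genes lie to the right of 0, medium spiny and cholinergic neuron genes to the left, and the genes of the cortical layers on both sides.

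By list medians, astrocyte, microglial and endothelial markers moved little with the 6 genes. All oligodendrocyte genes and most GABA interneuron genes had a positive correlation with them. The 6 oligodendrocyte genes had correlations from 0.37 to 0.66. In MSUS females 4 of them fell, where 11.9% of all genes tested fell. They were Mag, by 0.28 (edgeR adjusted p = 0.0128), Mbp, by 0.30 (edgeR adjusted p = 0.0231), Mog and Mobp. The summed level of the 6 oligodendrocyte genes lay between 3738 and 5734 CPM in Con females and between 3431 and 4194 CPM in MSUS females. The median correlation was 0.03 for 6 astrocyte genes, of which Slc1a2 and Aldh1l1 fell in MSUS females, -0.13 for 5 microglial genes and -0.11 for 4 endothelial genes, of which none passed the threshold. Of the 6 GABA interneuron genes, 5 had a positive correlation, with a list median of 0.63, from -0.72 for Lhx6 to 0.95 for Vip. In MSUS females Sst and Pvalb fell and Lhx6 rose by 0.25 (edgeR adjusted p = 0.0763). No gene of these lists passed the threshold in males. Their part in the levels of the 6 genes was not tested.

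The genes whose pattern was most like that of the 6 markers were sought among 14308 genes with a mean of at least 100 counts. An r above 0.9 was found for 72 genes. The gene model Gm11549 had the highest value, 0.99, and varied from 0.188 to 30.3 CPM. It was followed by Ccn3, a matricellular protein gene, with 0.98, Cplx3, which encodes a complexin that regulates vesicle release, with 0.97, Prss12, the gene of the protease neurotrypsin, with 0.97, and Ccn2 with 0.97. The pentraxin gene Nptx1, the transcription regulator gene Prdm8, Gm34583, Sel1l3, the neurotrophin gene Bdnf, the neuropeptide gene Cck and the relaxin receptor gene Rxfp1 completed the first 12, with values between 0.95 and 0.96. Bdnf ranged from 0.623 CPM to 25.0 CPM and Cck from 4.43 CPM to 139 CPM.

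The lowest correlations were those of the homeobox gene Meis1 (-0.94), the adhesion molecule gene Cntnap2 (-0.93), Lhx8, a LIM homeobox gene of cholinergic neurons (-0.91), Fam120b (-0.90), Crebrf (-0.90) and Dock10 (-0.90). Meis1 ranged from 7.97 CPM to 15.4 CPM, a 1.94-fold range, Cntnap2 from 164 CPM to 293 CPM, and Lhx8 from 1.36 CPM to 14.7 CPM, a 10.8-fold range. All values share the library of each animal, and CPM sum to a fixed total.

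The levels were also compared with sequencing depth, as part of 12 relations tested with permutations and adjusted together. The correlation of log2 CPM with the sense counts of the library was between 0.27 (Fezf2) and 0.53 (Emx1) by Pearson's r and between 0.34 and 0.60 by Spearman's rho, with an adjusted permutation p of r of 0.0428 for Slc17a7, Tbr1, Neurod2 and Emx1, 0.0720 for Neurod6 and 0.208 for Fezf2. It was between 0.34 and 0.49 without the 2 animals farthest from the median depth. Within groups it was between -0.29 and -0.06 in Con females and between 0.76 and 0.89 in MSUS females. In males it was between 0.27 and 0.34 in the Con group and between 0.34 and 0.69 in the MSUS group. With group means subtracted it was between 0.22 and 0.48, and within the library sets between 0.26 and 0.70.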

How the data were processed

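RNA-seq counts were analysed for the NAc of 24 mice, 6 in each of the groups CONF, MSF, CONM and MSM, mapped from the sample titles. According to the paper's methods and the labels, the authors prepared stranded, rRNA-depleted libraries, sequenced 100 bp pairs, aligned them to mm10 with STAR 2.6.1b and the GENCODE annotation, and deposited STAR's raw counts of uniquely mapped pairs, in 1 unstranded column and 1 column for either strand. Pairs with several alignments or several overlapping genes are not counted, which lowers the values of genes with close copies. The sense-strand counts were used, without rounding or correction.

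The 6 genes and all gene lists were chosen with earlier results of these data known. Genes were named if they were among the 6, if they were examples of the lists (those past the threshold first), or if they had the 12 highest or 6 lowest correlations with the mean standardized level of the 6. The values of 1 listed gene are not reported here. Gene positions and names are those of GENCODE M21 on GRCm38, which matched 52403 of the 52636 identifiers. A miRNA gene, Mir7055, lies within Slc17a7 and had 30 counts over the 24 libraries. Promoter windows are from RefSeq, and all 6 genes matched.

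Low counts were filtered with filterByExpr (minimum count 10), libraries were normalized by TMM, and groups were compared with the robust quasi-likelihood F test of edgeR 4.0.16 in R 4.3.3, with Benjamini-Hochberg adjustment and a threshold of 0.10. SE is the log2 fold change over the square root of F. The p-values measure the spread between animals. In the study whole litters were assigned to Con or MSUS, and the litter of each animal is not given. The spread between litters is therefore not measured. The study's model for females also had the stage of the estrous cycle, which the labels give for 6 of 12 females and for 6 males, so it was left out. Correlations used log2 CPM with a prior count of 2 in Python 3.11.15, with scipy 1.17.1. Depth was between 39923666 and 70575745 sense counts. In the 60 pairs of libraries within groups the lowest chi-square per gene was 6.34, above counting error. The fits were checked on simulated counts with planted changes. Genes of low level or high variation between animals received no planted change, so recovery was not checked for genes as variable as the 6. Alternatives were DESeq2 1.42.0, its size factors, other filters, unstranded counts, a replicate block, the library set (libraries 1 to 12 against 13 to 24), the share of pairs with no gene, all animals in 1 fit, a threshold of 0.05, and leaving out each animal.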

Additional observations from a re-analysis of the deposited data

Results flagged for a closer look

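In groups of 6 animals, the gap between the highest animal and the next was large for the group's range (Dixon's ratio, 95% critical value) in 12 of the 24 combinations of gene and group, where chance flags about 1 in 20. These ratios use CPM, and on log2 CPM none of the 24 passed. The 12 come from 4 animals. In MSUS females, MSF1 stood above the others for Slc17a7 (ratio 0.665, 466 CPM against 158 CPM in the next animal), Tbr1 (0.685), Neurod2 (0.669) and Emx1 (0.641). In Con males, CONM5 stood above the others for Slc17a7 (0.633, 773 CPM against 302 CPM), Neurod6 (0.634), Emx1 (0.643) and Fezf2 (0.727). In MSUS males, MSM6 stood apart for Neurod6 (0.643), Tbr1 (0.635) and Fezf2 (0.745). In Con females, CONF2 stood apart for Fezf2 (0.655, 17.9 CPM against 7.07 CPM). The cause was not tested.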

How the results depend on the processing

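In MSUS against Con females, 2 of the 6 genes passed the threshold. The number was 0 at an adjusted p under 0.05, 0 without a filter on low counts, and 0 with the share of pairs with no gene as a covariate. It was 1 with at least 10 counts in every animal (Fezf2, with 4 genes tested), 1 with the library set as a covariate (Emx1) and 1 with all 24 animals in 1 fit (Fezf2). Leaving out 1 animal gave from 0 to 6 genes. DESeq2, its size factors in edgeR and counts without regard to strand left it at 2. In every other comparison it was 0 under each alternative. The sign of the female values held in all alternatives. In males, leaving out 1 animal turned it for each gene, without CONM5 for Fezf2 and without MSM6 for the others. The log2 fold changes then ran from -0.35 to 1.32 for Slc17a7, -0.54 to 1.14 for Neurod6, -0.34 to 1.13 for Tbr1, -0.37 to 1.196 for Neurod2, -0.062 to 1.46 for Emx1 and -0.75 to 0.23 for Fezf2. With the share of pairs with no gene as a covariate, Neurod2 was at -0.059. All 15 pairs of genes passed the threshold in covariation under each alternative. Over all genes, MSUS females differed from Con females in 5156 genes by edgeR, 3126 at an adjusted p under 0.05, 0 with the share of pairs with no gene, and between 3102 (without MSF3) and 5737 (without MSF1) with 1 animal left out, with 3358 without MSF2. Con females differed from Con males in 544 genes by edgeR and in 1485 by DESeq2. Of the 35 other listed cortical genes, 8 passed in females by edgeR, 12 with DESeq2, 5 at an adjusted p under 0.05 and 5 without a filter on low counts. The cause was not tested.

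Samples of different groups share replicate numbers but no stated litter or batch. With the replicate number as a block, 3 of the 6 genes passed in females (Emx1, Fezf2 and Tbr1, the last at an edgeR adjusted p of 0.0984) and 0 in every other comparison. Over all genes the block gave 3800 in females and 12 between Con females and Con males. Same-numbered animals deviated together (r over 0.1) in 3 of 6 pairs in females and 2 of 6 in males, so the numbers are not treated as pairs. Depth limits Emx1 most, with 1 count in MSF5, and the spread between animals limits all 6.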
